A study of Homo sapiens with 8 samples.

Results

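Nonsense-mediated mRNA decay (NMD) is carried out by a small set of UPF and SMG proteins, and 9 of their genes were followed here in A549 cells treated with compounds that act on splicing: UPF1, UPF2, UPF3A, UPF3B, SMG1, SMG5, SMG6, SMG8 and SMG9. They were chosen as listed genes of the pathway, by Ensembl identifiers matched to GENCODE symbols on GRCh38, and are 9 of the 60624 genes counted. All 9 were found and all 9 passed the filter on low counts, with at least 1204 reads in every library. A549 cells are a long-established line from a human lung adenocarcinoma. The 4 groups were cells left untreated, cells given indisulam, which brings the splicing factor RBM39 to degradation, cells given SPHINX31, which inhibits the splicing factor kinase SRPK1, and cells given both. The methods of the study give 0.5 µM indisulam, 5 µM SPHINX31 and 24 h for A549 cells. The treatment labels of the indisulam and combination libraries instead give 2 µM indisulam and 18 h. In the methods, 2 µM and 18 h belong to an experiment on another line, from pancreatic cancer. Each group had 2 technical replicates, so that p-values measure the spread between such libraries and not between independent treatments.

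NMD removes mRNAs on which a ribosome stops at a premature stop codon, and it also lowers many normal transcripts. UPF1, an RNA helicase, is recruited to the stalled ribosome, and UPF2 bridges it to UPF3A or UPF3B, which bind the exon junction complex that splicing leaves upstream of each exon-exon junction. The kinase SMG1, held in check by SMG8 and SMG9, phosphorylates UPF1, after which SMG6 cuts the mRNA near the stop codon and SMG5 helps to recruit deadenylation and decapping factors. Because missplicing often creates premature stop codons, the pathway also clears many products of altered splicing. Several of its factors are encoded by mRNAs that the pathway itself degrades.

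The comparisons ask whether transcripts of these factors differ after either compound, after both, and after both against one. 2 of the 9 were higher and 2 lower with indisulam, where 43.7% of all tested genes changed. None passed edgeR's test with SPHINX31 (8.61% of all genes), and 2 were higher and 2 lower with the combination (50% of all genes). The changes were small. Against untreated cells the largest was a fall of SMG1 by 0.40 on the log2 scale with the combination, and all 9 stayed between 0.76-fold and 1.20-fold of the untreated level in the 3 treated groups.

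The promoters of 3 of the 9 genes shared a letter pattern, noticed after the sequences had been read, and are shown for this reason. The pattern was TCTCGCGA, searched on both strands from 250 bases before to 50 bases after the start site in the RefSeq promoter table (GRCh38.p14), in which 8 of the 9 genes had an entry. SMG8 had no entry there. The 150 bases before the start site are given 5′ to 3′ on the strand of the gene, with the pattern or its reverse complement in capitals. The stretches lie at chr13:114281451-114281600 on the plus strand for UPF3A, at chrX:119852964-119853113 on the minus strand for UPF3B and at chr1:156282826-156282975 on the minus strand for SMG5.
UPF3A: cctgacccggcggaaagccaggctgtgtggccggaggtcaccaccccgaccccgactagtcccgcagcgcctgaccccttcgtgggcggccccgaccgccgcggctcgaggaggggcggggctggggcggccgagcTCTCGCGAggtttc
UPF3B: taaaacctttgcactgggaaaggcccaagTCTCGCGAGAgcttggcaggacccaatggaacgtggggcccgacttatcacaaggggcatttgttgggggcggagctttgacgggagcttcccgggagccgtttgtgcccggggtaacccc
SMG5: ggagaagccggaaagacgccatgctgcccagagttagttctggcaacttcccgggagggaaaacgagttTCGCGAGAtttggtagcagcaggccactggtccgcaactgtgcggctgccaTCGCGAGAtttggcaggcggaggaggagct
In UPF3A the match began at base -14 from the start site. In UPF3B 2 matches, on opposite strands, overlapped at -121 and -119. In SMG5 separate matches lay at -81 and -30, both on the other strand. The pattern was present in 1.15% of the 35116 promoters of the table, a share taken over all its entries and not over tested genes alone. Among the other patterns searched on both strands, GGGCGG was in 6 of the 8 promoters (45.0% of all), CCAAT in 4 (34.6% of all), and neither TATAAA (11.5% of all) nor TGACGTCA (1.85% of all) in any of them.

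The 8 libraries held between 51727369 and 63186989 reads on genes, 83.0% to 86.0% of the reads recorded. After the filter on low counts 18661 genes were tested. Markers of epithelial cells were looked at, which cannot tell A549 from another epithelial line. The keratins KRT8 and KRT18 averaged 4085 and 3981 CPM (reads of a gene for every 1000000 reads on genes) in untreated cells. KRT7 averaged 1653 CPM there, and the epithelial adhesion genes EPCAM and CDH1 averaged 27.5 and 104.0 CPM. Against untreated cells, 43.7% of all tested genes were called with indisulam, 8.61% with SPHINX31 and 50% with the combination. Of the 5 epithelial markers, 1 was higher and 2 lower with indisulam, and 3 were lower with SPHINX31. With the combination 1 was higher and 4 lower, and CDH1 averaged 72.0 and KRT7 1194 CPM. The part of these 5 markers in the levels of the 9 factors was not tested. Of 7 markers of blood, endothelium and fibroblasts, CD3E had 0 reads in every library, PTPRC, CDH5, DCN and LUM had at most 15 reads in any, and PECAM1 and CD14 had 83 to 133 and 397 to 603 reads. None of the 3 of these markers that could be tested passed the test against untreated cells in any treated group. RBM39 itself was higher in transcript level with indisulam (log2 fold change 1.22, SE 0.0553, adjusted p = 5.41e-09) and with the combination (1.30, SE 0.0553, adjusted p = 1.44e-09). Adjusted p-values throughout were computed by edgeR's quasi-likelihood method and corrected as Benjamini and Hochberg describe over every gene tested, and CPM values are scaled by TMM-adjusted library sizes. In bulk RNA, fewer cells with a transcript and less of it in each cell cannot be told apart.

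The 9 transcripts differed several-fold in abundance. Per length of the canonical GENCODE transcript, SMG5 was the most abundant in untreated cells, at 24.5 ± 0.295 RPKM (CPM divided by length in kilobases; SD, n = 2), followed by UPF1 at 16.8 ± 0.229 RPKM. UPF3A, UPF3B and UPF2 came next at 13.1 ± 0.549, 13.0 ± 0.266 and 12.6 ± 0.636 RPKM, with overlapping libraries, so that these 3 could not be ranked. SMG1 had 9.96 ± 1.24 RPKM, its lower library at 9.08 RPKM lying above both libraries of SMG9. SMG9 at 8.07 ± 0.134 RPKM and SMG8 at 7.90 ± 0.0263 RPKM were nearly level, although their libraries did not overlap. SMG6 was lowest at 7.33 ± 0.0166 RPKM. SDs of 2 libraries as small as those of SMG8 and SMG6 do not measure how precisely a level is known. SMG5 stayed first in all 4 groups, and UPF1 had the next highest mean in each, although with indisulam its libraries overlapped those of UPF3B (means of 15.7 and 15.6 RPKM). The order depends on the length used. Per length of all annotated exons, SMG5 was still first, but UPF1 moved to rank 4 and UPF3A to rank 8 in untreated cells.

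UPF1, the helicase on which the pathway turns, is encoded on chromosome 19 of GRCh38, the build of all positions given (18831959 to 18868230, plus strand; ENSG00000005007) by a canonical transcript of 24 exons. It is the only one of the 9 whose canonical transcript has an exon-exon junction after the stop codon, 3 bases behind it. UPF1 measured 90.3 and 88.5 CPM in the untreated, 79.3 and 87.3 CPM in the indisulam, 89.5 and 88.5 CPM in the SPHINX31 and 86.6 and 85.0 CPM in the combination libraries. Both libraries with indisulam and both with the combination lay below both untreated ones, while those with SPHINX31 overlapped them. None of these differences passed the test (log2 fold change -0.10, SE 0.055, adjusted p = 0.149 with indisulam, -0.01, SE 0.0549, adjusted p = 0.961 with SPHINX31, and -0.06, SE 0.0549, adjusted p = 0.395 with both).

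UPF2, the bridge between UPF1 and the UPF3 proteins, lies on chromosome 10 (11920022 to 12043170, minus strand; ENSG00000151461). It measured 62.8 and 67.4 CPM untreated, 68.9 and 63.3 CPM with indisulam, 64.2 and 70.5 CPM with SPHINX31 and 62.8 and 64.5 CPM with both. The 4 groups overlapped throughout. Its log2 fold changes were 0.02 (SE 0.0639, adjusted p = 0.792), 0.05 (SE 0.0638, adjusted p = 0.68) and -0.03 (SE 0.0639, adjusted p = 0.698).

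UPF3A and UPF3B are paralogs that bind the exon junction complex, UPF3B being the more active of them in NMD. UPF3A, on chromosome 13 (114281601 to 114305817, plus strand; ENSG00000169062), measured 30.0 and 31.9 CPM untreated, 34.6 and 31.7 CPM with indisulam, 31.5 and 32.3 CPM with SPHINX31 and 31.4 and 30.9 CPM with both. Every treated group overlapped the untreated one, and no comparison passed the test (adjusted p = 0.214, 0.705 and 0.915). UPF3B, on the X chromosome (119834022 to 119852998, minus strand; ENSG00000125351), measured 30.0 and 30.9 CPM untreated, 38.0 and 34.9 CPM with indisulam, 32.5 and 35.0 CPM with SPHINX31 and 34.8 and 37.2 CPM with both. All 6 treated libraries were above both untreated ones. UPF3B rose 1.20-fold with indisulam (log2 fold change 0.26, SE 0.0662, adjusted p = 0.00621) and 1.18-fold with both (0.24, SE 0.0661, adjusted p = 0.00776). With SPHINX31 alone its log2 fold change of 0.15 (SE 0.0663) did not pass (adjusted p = 0.187).

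The kinase SMG1 is the longest of the 9, with a canonical transcript of 63 exons and 16062 bases on chromosome 16 (18804860 to 18926408, minus strand; ENSG00000157106). It measured 146 and 174 CPM untreated, 140 and 118 CPM with indisulam, 166 and 170 CPM with SPHINX31 and 128 and 115 CPM with both. The indisulam and combination libraries were all below the untreated ones, but 1 indisulam library came close to the lower untreated library, and the SPHINX31 libraries lay between the untreated ones. SMG1 fell by 0.31 on the log2 scale with indisulam (SE 0.0873, adjusted p = 0.0103) and by 0.40 with both (SE 0.0873, adjusted p = 0.00194), to 0.804-fold and 0.759-fold of the untreated level. SPHINX31 alone gave a value of 0.07 on that scale (SE 0.0868, adjusted p = 0.656).

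SMG1 has several pseudogene copies, so part of its reads cannot be placed with certainty. Of all 150-base windows of its canonical transcript, 6.34% were also present in an annotated SMG1 pseudogene transcript, and the longest identical stretch, with SMG1P6, was 360 bases. Reads without a unique alignment were kept apart from the gene counts. Together the SMG1 pseudogenes had 640 and 629 reads untreated, 786 and 644 with indisulam, 498 and 614 with SPHINX31 and 656 and 592 with both, against 9019 and 10374, 8120 and 5991, 9014 and 9955, and 7291 and 6601 reads on SMG1. Of the 6 pseudogenes tested, SMG1P5 and SMG1P7 rose with indisulam (log2 fold change 0.91, SE 0.174, adjusted p = 0.000895 and 0.70, SE 0.143, adjusted p = 0.00137), the direction opposite to SMG1. The other 4 were not called, and 20.1% of all genes were higher with indisulam.

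SMG8 and SMG9 form a complex with SMG1 and restrain the kinase, and their transcripts moved in opposite directions with indisulam. SMG8, on chromosome 17 (59209400 to 59215239, plus strand; ENSG00000167447), measured 25.4 and 25.5 CPM untreated, 28.4 and 28.2 CPM with indisulam, 22.2 and 22.3 CPM with SPHINX31 and 26.9 and 26.5 CPM with both. The 2 libraries of each group were closer to each other than to any library of another group, and the order was SPHINX31, untreated, combination, indisulam from lowest to highest. SMG9, on chromosome 19 (43727983 to 43754962, minus strand; ENSG00000105771), measured 43.8 and 44.8 CPM untreated, 39.3 and 37.0 CPM with indisulam, 52.8 and 49.9 CPM with SPHINX31 and 41.6 and 36.7 CPM with both. Its order was the reverse, except that the indisulam and combination libraries overlapped.

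With indisulam SMG8 rose 1.11-fold (log2 fold change 0.15, SE 0.0579, adjusted p = 0.0466) and SMG9 fell to 0.862-fold (-0.21, SE 0.0676, adjusted p = 0.0202). The SMG8 value stayed at 0.13 to 0.17 but was no longer called with DESeq2 (adjusted p = 0.0877), with genes of at least 1 count (0.139), with a replicate block (0.0601) and with that block and a GC correction (0.0627). With SPHINX31 the signs were the other way round, -0.19 for SMG8 (SE 0.0586) and 0.21 for SMG9 (SE 0.0667), and neither passed (adjusted p = 0.0585 and 0.0668). With both, SMG9 fell (-0.18, SE 0.0674, adjusted p = 0.0413), and SMG8 at 0.07 (SE 0.0579) did not pass (adjusted p = 0.349). Against SPHINX31 alone, the combination raised SMG8 1.20-fold (0.26, SE 0.0587, adjusted p = 0.00224), and SMG9 was 0.763-fold (-0.39, SE 0.0673, adjusted p = 0.000321).

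The ratio of SMG8 to SMG9 reads within a library does not depend on how libraries are scaled. It was 0.580 and 0.569 untreated, 0.722 and 0.762 with indisulam, 0.421 and 0.447 with SPHINX31, and 0.645 and 0.723 with both. Every indisulam and combination library was above, and every SPHINX31 library below, both untreated ones. The ratio of UPF3B to UPF3A was 0.999 and 0.969 untreated, 1.10 in both indisulam libraries, 1.03 and 1.08 with SPHINX31, and 1.11 and 1.21 with both, so that all treated libraries lay above the untreated ones. Both ratios were chosen after the values had been seen and are given without a test.

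SMG5, which links phosphorylated UPF1 to deadenylation and decapping, lies on chromosome 1 (156249224 to 156282825, minus strand; ENSG00000198952). It measured 111 and 113 CPM untreated, 125 and 119 CPM with indisulam, 132 and 122 CPM with SPHINX31 and 128 and 125 CPM with both. All 6 treated libraries were above both untreated ones. SMG5 rose 1.13-fold with both (log2 fold change 0.18, SE 0.0532, adjusted p = 0.013). Its log2 fold changes of 0.13 with indisulam (SE 0.0533, adjusted p = 0.0732) and 0.18 with SPHINX31 (SE 0.0532, adjusted p = 0.0518) did not pass.

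SMG6, the endonuclease, lies on chromosome 17 (2059839 to 2303785, minus strand; ENSG00000070366). It measured 43.7 and 43.8 CPM untreated, 41.7 and 39.4 CPM with indisulam, 44.7 and 43.9 CPM with SPHINX31 and 44.5 and 42.2 CPM with both. The indisulam libraries were below, and the SPHINX31 libraries just above, the untreated ones, and the combination overlapped them. No comparison passed (adjusted p = 0.135, 0.891 and 0.848). Exons of HIC1 on the opposite strand cover 22.9% of the exonic bases of SMG6, and HIC1 had 7 to 27 reads per library. For SMG8, exons of ENSG00000265303 on the same strand cover 11.3% of the exonic bases, and that gene had 0 reads. How many SMG6 or SMG8 reads were set aside as ambiguous in these overlaps was not tested.

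**Figure D1:**
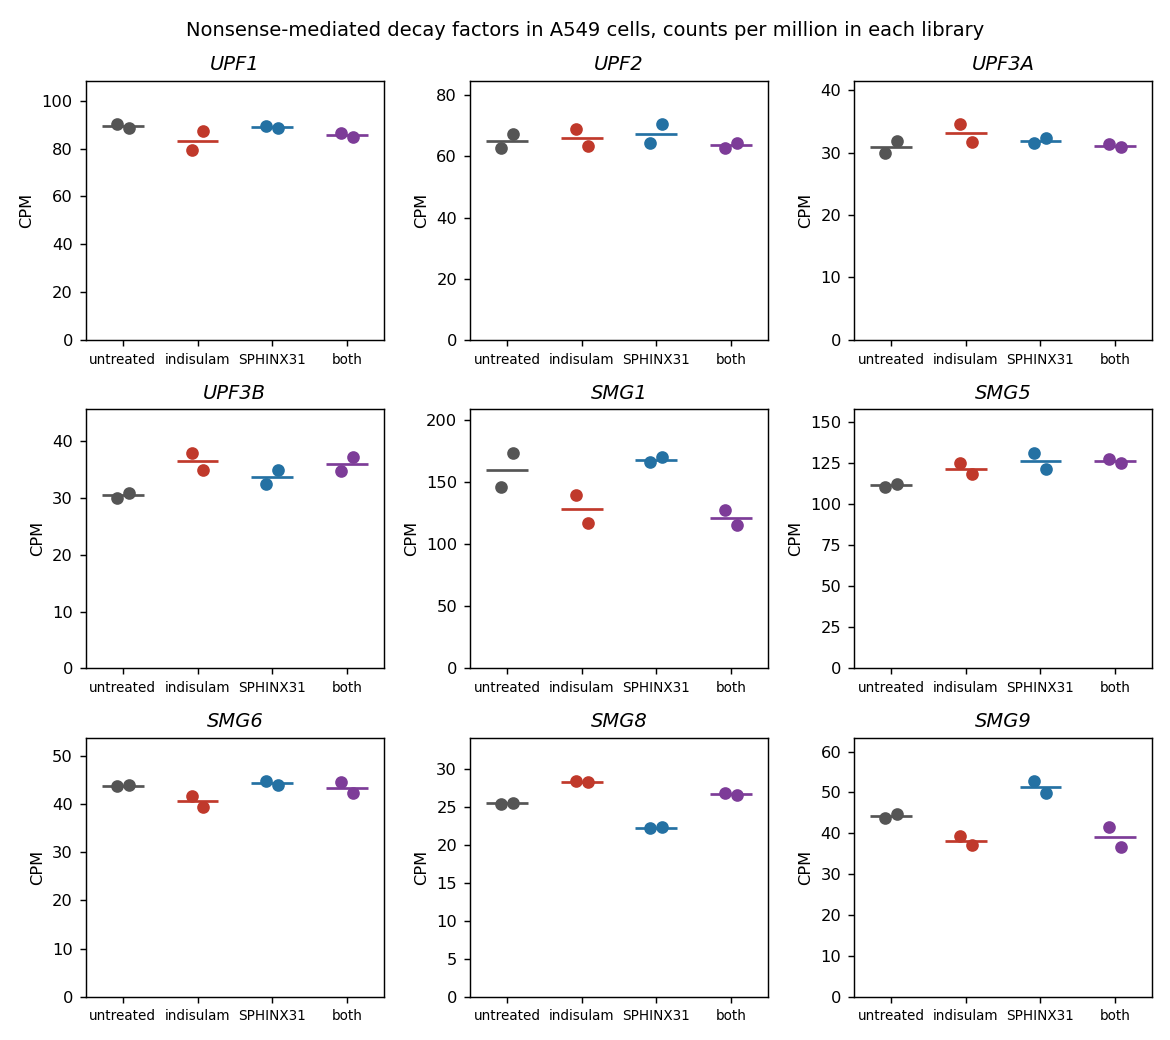
CPM (TMM-adjusted, axes from 0) of the 9 factors in each of the 8 libraries, 1 point per library and a bar at the mean of the 2 libraries of a group. SMG1 was 146 and 174 CPM untreated and 128 and 115 CPM with both compounds, and SMG8 and SMG9 were ordered in opposite ways over the groups.

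With indisulam, 4 of the 9 factors passed the test, UPF3B and SMG8 higher and SMG1 and SMG9 lower, against 43.7% of all tested genes (20.1% higher and 23.5% lower). The median log2 fold change of the 9 was 0.02, against 0.00 for all genes. Libraries of the groups did not overlap for 7 factors, 3 higher (35.9% of all genes) and 4 lower (37.3%). An unadjusted p under 0.05 was reached by 5 factors (51.2% of all genes). The share called was thus close to that of all genes. Most calls were lost on leaving out 1 library, often with little change in the log2 fold change. SMG8 kept values of 0.15 to 0.17 but lost its call on leaving out either untreated library (adjusted p = 0.181 and 0.16) or either indisulam library (0.158 and 0.111). SMG9 lost it without untreated replicate 1 or 2 (-0.23, adjusted p = 0.0627 and -0.20, adjusted p = 0.107) or indisulam replicate 2 (-0.17, adjusted p = 0.131). UPF3B lost it without untreated replicate 1 (0.24, adjusted p = 0.0558) or indisulam replicate 1 (0.20, adjusted p = 0.0695). SMG1 moved the most, to -0.18 without untreated replicate 2 (adjusted p = 0.153) and -0.19 without indisulam replicate 2 (adjusted p = 0.102). The number of factors called was then 1, 1, 2 and 1 without untreated replicates 1 and 2 and indisulam replicates 1 and 2.

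With SPHINX31, none of the 9 passed edgeR's test (8.61% of all genes did, 4.94% higher and 3.67% lower), while 4 had an unadjusted p under 0.05 (24.1% of all genes): UPF3B, SMG5 and SMG9 with positive and SMG8 with a negative log2 fold change. DESeq2 called 1 of the 9, SMG5 (adjusted p = 0.0412). Libraries did not overlap for 4 factors upward, UPF3B, SMG5, SMG6 and SMG9 (26.9% of all genes), and for SMG8 downward (27.1%). The median was 0.05, against -0.01 for all genes. With a correction for GC content 3 factors passed, SMG5 and SMG9 higher and SMG8 lower. Without indisulam replicate 1 or 2, SMG5 and SMG9 passed, without SPHINX31 replicate 2 SMG5 did (adjusted p = 0.0257), and without combination replicate 2 SMG9 did (0.0483).

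With the combination, 4 of the 9 passed, UPF3B and SMG5 higher and SMG1 and SMG9 lower, against 50% of all tested genes (23.8% higher and 26.3% lower). Libraries did not overlap for UPF3B, SMG5 and SMG8 upward (37.6% of all genes) and for UPF1, SMG1 and SMG9 downward (38.2%). The median was -0.02, against 0.00 for all genes, and 4 factors had an unadjusted p under 0.05 (55.9% of all genes). SMG1 stayed called in every alternative. UPF3B lost its call without untreated replicate 1 (0.22, adjusted p = 0.0636) or combination replicate 2 (0.20, adjusted p = 0.0731), with values close to the 0.24 of all libraries. SMG5 lost it without untreated replicate 1 or 2 (adjusted p = 0.0881 and 0.0541) or combination replicate 1 (0.0593), at values of 0.17 to 0.19 against 0.18. SMG9 lost it without untreated replicate 1 or 2 (0.0989 and 0.171), without combination replicate 2, where it fell by only 0.09 (adjusted p = 0.346), with scaling by total counts alone (0.154) and with DESeq2 (0.0657). 1, 2 and 2 factors were called without untreated replicate 1, untreated replicate 2 and combination replicate 2. These 3 comparisons share the untreated libraries.

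**Figure D2:**
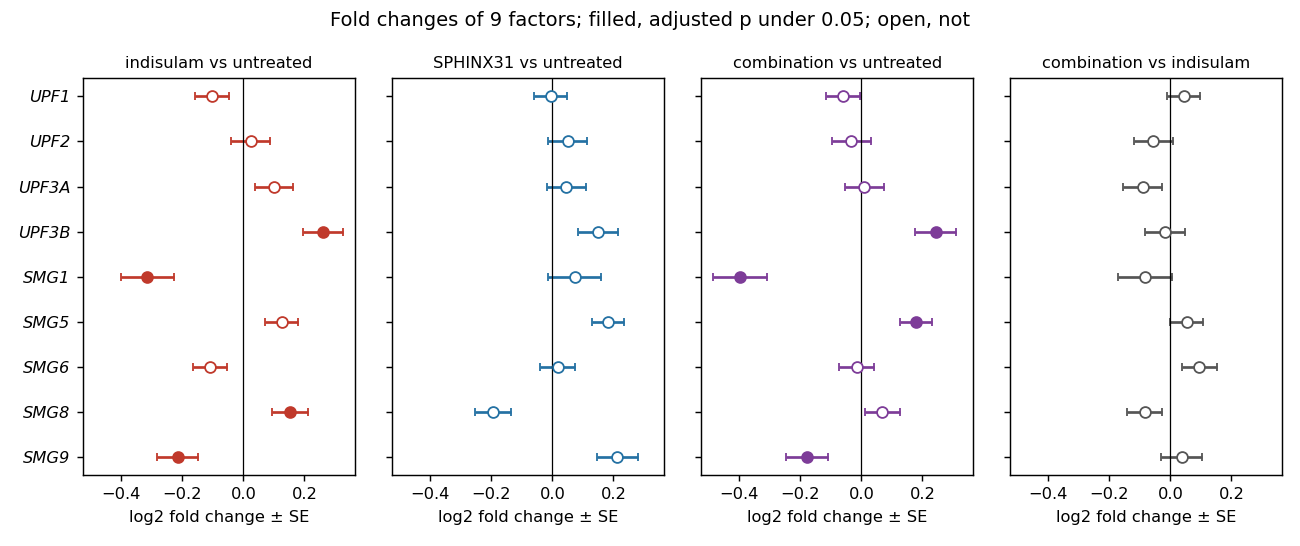
Log2 fold change with its standard error for each of the 9 factors in 4 comparisons of 2 against 2 libraries; filled points had an adjusted p under 0.05. In the combination against untreated, SMG1 was at -0.40 and UPF3B at 0.24, and in the combination against indisulam no point is filled.

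Adding SPHINX31 to indisulam gave log2 fold changes between -0.091 and 0.094 for the 9 factors. None passed edgeR's test, against 7.5% of all genes (3.17% higher and 4.32% lower), and none had an unadjusted p under 0.05 (22.2% of all genes). DESeq2 also called none. Standard errors were 0.0532 to 0.0876, so that small differences were not detectable at this replication. The largest values were 0.09 for SMG6 (adjusted p = 0.367) and -0.09 for UPF3A (adjusted p = 0.442). Leaving out 1 library gave 0.051 to 0.139 for SMG6, -0.155 to -0.024 for UPF3A and -0.206 to 0.05 for SMG1. Libraries did not overlap for SMG6 upward (25.3% of all genes) and for UPF3A and SMG8 downward (25.5%).

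Adding indisulam to SPHINX31 changed 3 of the 9, SMG8 higher and SMG1 and SMG9 lower, against 49.9% of all genes (23.4% higher and 26.5% lower). SMG1 fell by 0.47 on the log2 scale (SE 0.0874, adjusted p = 0.000575), to 0.722-fold. These 3 calls were kept in all 17 alternatives tried for single factors, as was that of SMG1 in the combination against untreated cells. Leave-one-out ranges against SPHINX31 were -0.53 to -0.40 for SMG1, -0.47 to -0.30 for SMG9 and 0.26 to 0.28 for SMG8. No other factor had an unadjusted p under 0.05 (3 of the 9, against 56% of all genes). Libraries did not overlap for SMG8 upward (36.8% of all genes) and for UPF1, UPF3A, SMG1 and SMG9 downward (37.5%). UPF3B (0.09, SE 0.066, adjusted p = 0.262) and SMG5 (0.00, SE 0.0531, adjusted p = 0.968) did not pass.

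The interaction term compares the combination with the sum of both single effects on the log2 scale. No factor passed (0% of all genes did), and none of the 9 had an unadjusted p under 0.05 (8.49% of all genes did). DESeq2 called none of the 9 and 32 of all genes. The values ran from -0.18 for SMG9 (SE 0.0953, adjusted p = 0.654) to 0.11 for SMG8 (SE 0.0824, adjusted p = 0.745).

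Across the 8 libraries, Pearson's r of log2 CPM was -0.919 between SMG8 and SMG9, 0.88 between SMG1 and SMG9 and -0.739 between SMG1 and SMG8. It was 0.588 between UPF3A and UPF3B and -0.80 between UPF1 and UPF3B. The libraries come from 4 groups of 2, so that these values mostly describe differences between 4 conditions. The genes most like UPF3B, the factor with the highest fold change in the combination, were BLOC1S5, ZFP1, PRDM4, KBTBD2 and THAP5 (r from 0.973 to 0.987 over 8 libraries, among 9945 genes). Those most like SMG1, the one with the lowest, were PSMA3-AS1, NBEA, LAMA3, USP24 and ACACB (r from 0.979 to 0.988).

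The shared promoter pattern was set beside the fold changes of other genes that hold it. UPF3A, UPF3B and SMG5 had log2 fold changes of 0.10, 0.26 and 0.13 with indisulam, of which 1 passed, and of 0.01, 0.24 and 0.18 with the combination, of which 2 passed. Of 315 tested genes with TCTCGCGA in a promoter, 27.9% were higher and 22.2% lower with indisulam, against 21.5% and 25.5% of 12136 genes without it. With the combination the shares were 25.7% and 27.9%, against 24.4% and 29.0%. With SPHINX31 they were 3.81% and 3.17%, against 5.67% and 4.28%. UPF3A, UPF3B and SMG5 were at 0.05, 0.15 and 0.18 with SPHINX31, and none passed edgeR's test. This is a description of letters in a window, and binding of a factor was not measured.

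Of 13 other genes of the NMD pathway, 3 were higher and 4 lower with indisulam, none passed with SPHINX31, and 3 were higher and 3 lower with the combination. Their medians were 0.04, 0.07 and 0.04, and 43.7%, 8.61% and 50% of all genes were called. NCBP1, the large subunit of the nuclear cap-binding complex, fell the most, by 0.72 with indisulam (SE 0.0572, adjusted p = 5.06e-07) and by 0.97 with both (SE 0.0577, adjusted p = 2.43e-08). It measured 63.0 and 64.3 CPM untreated, 38.8 and 38.3 CPM with indisulam, 58.5 and 63.1 CPM with SPHINX31 and 33.1 and 31.8 CPM with both, so that all 4 libraries with indisulam were far below the rest. NCBP2, the small subunit, rose by 0.35 with indisulam (SE 0.0502, adjusted p = 8.34e-05) and by 0.36 with both (SE 0.0502, adjusted p = 4.79e-05).

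RUVBL2, an ATPase that acts with RUVBL1 in assembling SMG1 and related kinases, fell by 0.54 with indisulam (SE 0.0584, adjusted p = 8.22e-06) and by 0.53 with both (SE 0.0583, adjusted p = 5.88e-06). RUVBL1 did not pass (0.07 and -0.03). CTIF, which joins the cap-binding complex to translation, rose by 0.36 (SE 0.0634, adjusted p = 0.000463) and 0.66 (SE 0.0627, adjusted p = 1.59e-06). Between the combination and indisulam, 3.17% of all genes were called higher and 4.32% lower. CTIF was higher there (0.30, SE 0.0621, adjusted p = 0.01) and NCBP1 lower (-0.25, SE 0.0587, adjusted p = 0.0218). Of these 2 calls, none was left without indisulam replicate 1 or combination replicate 1 and 1 without indisulam replicate 2 or combination replicate 2.

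The 6 genes of the exon junction complex, to which the UPF3 proteins bind, had 3 higher and none lower with indisulam and with the combination, and none called by edgeR with SPHINX31. Of all genes, 20.1% were higher with indisulam and 23.8% with the combination, and 8.61% were called with SPHINX31. RNPS1, CASC3 and MAGOHB were the 3 that rose with indisulam, by 0.28 (SE 0.0505, adjusted p = 0.000512), 0.28 (SE 0.0492, adjusted p = 0.000487) and 0.17 (SE 0.0601, adjusted p = 0.0337). With the combination the same 3 rose, by 0.29, 0.30 and 0.20. Under alternatives that left out no single library, 2 to 3 of the list were called with indisulam. With indisulam and with the combination, a call could also be lost on leaving out a library. EIF4A3, RBM8A and MAGOH, which with CASC3 make up the core of the complex, were between -0.01 and 0.11 with indisulam and did not pass. The medians of the 6 were 0.14, 0.03 and 0.16.

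Among 13 genes of general mRNA decay, 4 were higher and 1 lower with indisulam, 1 was lower with SPHINX31, and 6 were higher and 4 lower with the combination, against 43.7%, 8.61% and 50% of all genes called in either direction. CNOT8 and CNOT7, deadenylases of the CCR4-NOT complex, rose by 0.33 and 0.25 with indisulam (adjusted p = 0.000237 and 0.00245), and EXOSC10, a nuclease of the nuclear exosome, fell by 0.36 (adjusted p = 0.000311). DCP2, the decapping enzyme, was the 1 gene called with SPHINX31, where it fell by 0.27 (SE 0.0627, adjusted p = 0.0158), and it also fell by 0.37 with both (SE 0.0629, adjusted p = 0.000286). Its value with indisulam alone was -0.05 (adjusted p = 0.543). The list count with SPHINX31 was 0 without either untreated library or SPHINX31 replicate 1, and that with indisulam was 3 without untreated replicate 1.

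12 transcripts known to be sensitive to NMD were followed as well. With indisulam 7 were higher and 3 lower, with SPHINX31 6 were higher and none lower, and with the combination 8 were higher and none lower, with medians of 0.29, 0.46 and 0.46. Of all genes, 20.1% were higher and 23.5% lower with indisulam, 4.94% and 3.67% with SPHINX31, and 23.8% and 26.3% with the combination, with medians of 0.00, -0.01 and 0.00. SNHG1, a noncoding host of small nucleolar RNAs, measured 79.4 and 87.6 CPM untreated, 125 and 122 CPM with indisulam, 173 and 149 CPM with SPHINX31 and 173 and 183 CPM with both. All treated libraries were above the untreated ones, and the log2 fold changes were 0.57 (SE 0.0704, adjusted p = 2.7e-05), 0.94 (SE 0.0704, adjusted p = 7.13e-06) and 1.09 (SE 0.0705, adjusted p = 4.65e-08). The other small nucleolar RNA hosts SNHG12 and ZFAS1 rose by 0.51 and 0.49 with indisulam (adjusted p = 0.00413 and 0.000471). With SPHINX31 alone they were at 0.35 and 0.19 and did not pass (adjusted p = 0.0985 and 0.203).

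DDIT3 and GADD45A, which are stress response genes as well as NMD-sensitive, fell with indisulam (-0.71, SE 0.106, adjusted p = 0.000131 and -0.33, SE 0.0891, adjusted p = 0.00845) and rose with SPHINX31 (0.99, SE 0.101, adjusted p = 8.15e-05 and 0.88, SE 0.0854, adjusted p = 5.8e-05). UPP1 also fell with indisulam (-0.31, SE 0.0877, adjusted p = 0.0118). Its means were 23.8 CPM untreated, 19.2 CPM with indisulam, 36.1 CPM with SPHINX31 and 22.5 CPM with both. ATF3, of the same stress response, rose with SPHINX31 and with both (0.84 and 0.67, adjusted p = 0.000116 and 4.27e-05). How much of these levels reflects decay and how much transcription was not tested. In the combination against indisulam 5 of the 12 were higher and none lower, where 3.17% of all genes were higher and 4.32% lower. Fewer of the 12 were called without combination replicate 2.

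**Figure D3:**
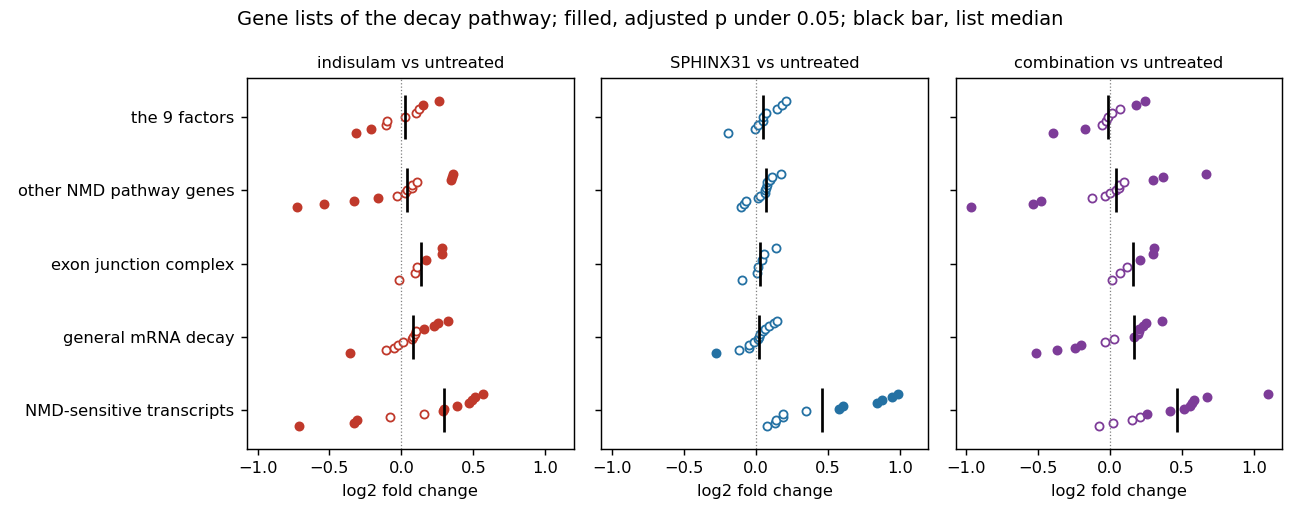
Log2 fold changes against untreated cells for the 9 factors and 4 other gene lists, 1 point per gene, filled where the adjusted p was under 0.05, with a black bar at the list median. The medians of the 9 factors were 0.02, 0.05 and -0.02, and those of the 12 NMD-sensitive transcripts were 0.29, 0.46 and 0.46.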

How the data were processed

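Polyadenylated RNA of 8 A549 libraries, 2 for each of 4 groups, was sequenced by the authors. The deposited values are raw counts of reads per Ensembl gene, and per the submitters' processing notes HISAT2 2.2.1 and HTSeq were used, with GRCh38 as the genome. The annotation release and the strand setting of the counting were not given in the sources used here. Reads that were ambiguous or had no unique alignment were recorded apart.

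Genes were named, and their positions, exons and GC content taken, from GENCODE release 44 on GRCh38, promoter sequences from the RefSeq table of GRCh38.p14. Counts were analysed with edgeR 4.0.16 in R 4.3.3: filterByExpr kept 18661 of 60624 genes, TMM factors were 0.978 to 1.02, and all 8 libraries were fitted together by group with the quasi-likelihood test, on 4 residual degrees of freedom. The spread of each gene was moderated toward a trend over all genes, so the SE of a factor is not set by its own libraries alone. P-values were two-sided, and Benjamini-Hochberg adjustment ran over the 18661 genes, with a threshold of 0.05. The biological coefficient of variation was 0.0491. Depth was 51727369 to 63186989 reads on genes, and intervals of the fits include counting error. RPKM values divide CPM by transcript length. Scripts were tested on simulated counts.

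The 9 factors, the other gene lists and the comparisons were chosen with earlier results of these data known. The values of 1 listed gene are not reported here. Named outside the 9 are at most 3 genes called higher and 3 called lower per list and comparison, by size of the log2 fold change, and genes set beside them for contrast (RUVBL1, EIF4A3, RBM8A, MAGOH), besides pseudogenes and overlapping genes of the factors and the genes the compounds act on. Alternatives were DESeq2 1.42.0, other scalings, filters and thresholds, GC offsets over 50 bins, a replicate block, only the groups compared and leaving out each library. Figures were drawn with matplotlib 3.10.9 in Python 3.11.15.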

Additional observations from a re-analysis of the deposited data

Results flagged for a closer look

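Reads that the counting assigned to no feature were used in no comparison, and whether they lay in introns or outside genes was not tested. Their share of recorded reads averaged 4.99% in the indisulam libraries and 5.37% in the combination libraries, above both untreated libraries (3.94% and 4.34%). The SPHINX31 libraries had 3.67% and 3.93%. The part of this share in the levels of the 9 factors was not tested.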

How the results depend on the processing

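Over 909 values of single factors under alternatives, 823 kept their direction and side of the threshold, 25 lost a call, 24 gained one and 37 changed sign, none of the last where a call was made. Factors called with SPHINX31 against untreated went from 0 to 3 at an adjusted p under 0.1, with GC correction and with a replicate block with GC correction, to 2 with total counts alone and with genes of at least 1 count, and to 1 with DESeq2, with a minimum of 10 counts in every library and with only the groups compared. Leaving out 1 library gave 1 to 5 factors called with indisulam, 0 to 2 with SPHINX31, 1 to 4 with the combination, 0 to 0 in the combination against indisulam, 3 to 3 against SPHINX31 and 0 to 0 in the interaction. For all genes it gave 5887 to 8379, 482 to 1810, 7209 to 9565, 440 to 1612, 7340 to 9523 and 0 to 1. The 1606 genes called with SPHINX31 became 2642 at an adjusted p under 0.1 and 2616 with GC correction, the 1399 of the combination against indisulam became 2226 and 2289, and the 0 of the interaction became 32 with DESeq2, 94 with at least 1 count and 16 with GC correction. With total counts alone the calls were 1341 higher and 515 lower with SPHINX31, against 921 and 685, 5331 and 4304 with the combination, against 4434 and 4903, and 942 and 498 in the combination against indisulam, against 592 and 807.

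Deviations of same-numbered libraries from their group means correlated at 0.455 between untreated and SPHINX31, 0.167 between untreated and combination, -0.569 and -0.494 between indisulam and each of untreated and SPHINX31, and 0.016 and 0.086 between the combination and SPHINX31 and indisulam (9946 genes). Not every pair was above 0.1, so the numbers were not taken as pairs. With a replicate block 3 factors were called with indisulam, SMG8 losing its call (adjusted p = 0.0601), and SMG8 was also lost with DESeq2 (0.0877), with at least 1 count (0.139) and with the block and GC correction (0.0627). SMG5 with indisulam gained a call with GC correction (0.0261), with the block and GC correction (0.0366), with only the groups compared (0.0416) and without SPHINX31 replicate 1 or 2 (0.0399 and 0.04). A block with the indisulam numbers exchanged, added after the data were seen, called 5, 3, 4, 0, 3 and 0 factors and 8952, 2630, 10014, 2252, 10005 and 12 genes in the 6 comparisons.

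Signs that changed were of values near 0. UPF2 with indisulam was -0.009 with GC correction and -0.008 with block and GC correction, UPF1 with SPHINX31 0.028 with total counts and 0.019 with either GC correction, UPF2, SMG6 and UPF3A with the combination 0.02 and 0.038 with total counts and -0.004 with either GC correction, UPF3B in the combination against indisulam 0.028 with total counts, and UPF1 in the interaction -0.005 with either GC correction. SMG5 in the combination against SPHINX31 was 0.005 with RLE scaling and DESeq2, 0.016 with total counts, 0.001 with a minimum of 10 counts per library and 0.008 with only the groups compared. Leaving out 1 library gave -0.039 to 0.092 for UPF2 and no other change of sign with indisulam, -0.02 to 0.008 for UPF1, -0.021 to 0.114 for UPF2 and -0.048 to 0.205 for SMG1 with SPHINX31, and -0.084 to 0.019 for UPF2, -0.033 to 0.053 for UPF3A and -0.044 to 0.022 for SMG6 with the combination. In the combination against indisulam it gave -0.022 to 0.11 for UPF1, -0.12 to 0.01 for UPF2, -0.081 to 0.05 for UPF3B, -0.206 to 0.05 for SMG1 and -0.052 to 0.126 for SMG9. Against SPHINX31 it gave -0.046 to 0.065 for SMG5 and -0.059 to 0.005 for SMG6, and in the interaction -0.018 to 0.114 for UPF1. The cause of these changes was not tested.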
